A study of Mus musculus with 2 samples.

Results

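10 genes of MHC class I presentation were followed through the cell classes of mouse spleen myeloid preparations: the heavy chain genes H2-K1, H2-D1 and H2-T23, the light chain gene B2m, the peptide transporter and loading genes Tap1, Tap2 and Tapbp, the immunoproteasome subunit genes Psmb8 and Psmb9, and the regulator gene Nlrc5. They are 10 of the 27998 gene rows of each library, were chosen by name and were all present. Cells carrying CD11b and Gr1, surface proteins of neutrophils and many monocytes, were sorted from spleen and profiled by droplet single-cell RNA sequencing from the 3′ end. One library pooled 5 control wild-type FVB/n mice, and 1 library pooled 3 tumour-bearing PyMT mice, which carry the polyoma virus middle T oncogene. The labels give the strain of the tumour-bearing mice only as PYMT, and name neither a promoter nor an age. With 1 library per group there is no test of the groups and no replicate check, and every difference is between these 2 libraries; intervals are 95% and cover counting error only.

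Class I molecules display short peptides from the cell's own proteins to CD8 T cells. Proteasomes cut the peptides, the TAP transporter carries them into the endoplasmic reticulum, tapasin helps load them, and the heavy chain reaches the surface bound to β2-microglobulin. Interferons raise the whole set, with IRF1 and the coactivator NLRC5 among the factors involved, and exchange the constitutive catalytic proteasome subunits for the inducible ones. In the mouse, H2-K1 and H2-D1 encode classical heavy chains, and H2-T23 encodes Qa-1, which is seen by inhibitory receptors of natural killer cells.

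4 upstream windows are shown: those of H2-K1 and H2-D1, because these genes have much the same upstream sequence and their levels parted in the results below, and those of B2m and Tap1 for comparison. Each window holds the 250 bases before the start site in RefSeq on GRCm38.p6, where 8 of the 10 genes had an entry. H2-K1 is chr17:34000334-34000583 on the minus strand, H2-D1 is chr17:35262844-35263093 on the plus strand, B2m is chr2:122147437-122147686 on the plus strand and Tap1 is chr17:34187306-34187555 on the plus strand. Capitals mark 4 motifs on either strand: GGGANTCCC, the core of an NF-κB element, where N is any base; GAANNGAAA, part of an interferon response element; TGACG, the core of a cAMP response element; and CCAAT, the letters that NF-Y binds.
H2-K1: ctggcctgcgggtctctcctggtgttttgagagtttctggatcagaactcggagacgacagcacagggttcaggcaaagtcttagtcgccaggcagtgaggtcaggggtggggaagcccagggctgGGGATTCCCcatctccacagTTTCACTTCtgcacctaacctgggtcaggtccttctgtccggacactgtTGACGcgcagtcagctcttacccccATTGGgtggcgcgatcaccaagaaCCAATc
H2-D1: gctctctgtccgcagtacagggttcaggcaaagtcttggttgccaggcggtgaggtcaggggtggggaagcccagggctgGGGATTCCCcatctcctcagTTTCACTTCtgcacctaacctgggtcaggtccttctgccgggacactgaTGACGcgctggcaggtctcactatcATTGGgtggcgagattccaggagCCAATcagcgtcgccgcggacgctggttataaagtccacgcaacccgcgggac
B2m: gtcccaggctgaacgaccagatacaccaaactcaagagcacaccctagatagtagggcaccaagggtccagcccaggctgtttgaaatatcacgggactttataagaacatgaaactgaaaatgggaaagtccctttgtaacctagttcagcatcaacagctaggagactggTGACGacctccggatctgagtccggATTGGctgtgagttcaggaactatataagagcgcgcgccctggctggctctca
Tap1: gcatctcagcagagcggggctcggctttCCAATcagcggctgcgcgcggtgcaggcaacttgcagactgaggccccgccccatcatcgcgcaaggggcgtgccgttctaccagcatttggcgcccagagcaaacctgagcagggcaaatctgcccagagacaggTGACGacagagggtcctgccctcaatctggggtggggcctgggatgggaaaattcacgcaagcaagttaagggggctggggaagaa

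Over 203 aligned bases, 180 were the same in the H2-K1 and H2-D1 windows (88.7%), and 94 bases of the windows lay in gaps. The windows are offset, with GGGANTCCC at -124 from the start site in H2-K1 and -170 in H2-D1. GGGANTCCC was found in these 2 windows, in those of H2-Q6 and H2-Q7, and in 0.636% of all 32851 windows of that length. GAANNGAAA was also in both, against 6.31% of all windows. This pattern has a fixed gap, and the B2m window holds gaaactgaaa, with a longer gap, which was not counted or marked. The lack of a marked match in a window therefore does not show that it has no interferon response element. TGACG was in the windows of H2-K1, H2-D1, B2m, Tap1 and Psmb9, against 17.8% of all windows. CCAAT was in 7 of the 8 windows, all but that of Psmb8, against 33.8%. A match describes letters in a window and does not show binding. The start sites of Tap1 and Psmb9 lie 226 bases apart and point away from each other. Their windows therefore overlap, and the TGACG and CCAAT matches of Tap1 lie on the same bases as those of Psmb9. The windows counted above for these motifs are thus not all separate sites.

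In GENCODE M21 on GRCm38, 8 of the genes lie within the MHC on chromosome 17: Tapbp at chr17:33915899-33929292, H2-K1 at chr17:33996017-34000347, Psmb9 at chr17:34181987-34187764, Tap1 at chr17:34187553-34197225, Psmb8 at chr17:34197721-34201454, Tap2 at chr17:34203527-34216321, H2-D1 at chr17:35262730-35267499 and H2-T23 at chr17:36029773-36032855. B2m lies at chr2:122147686-122153083 and Nlrc5 at chr8:94434356-94527272. A 3′ method counts reads near the end of the transcript, so the last 500 bases were searched for 50-base stretches that occur in another gene. These made up 0.443% of the stretches of H2-K1, 9.53% of those of H2-D1 and 38.1% of those of H2-T23, so the level of H2-T23 is uncertain, while the other 7 genes had none. FVB mice carry the q haplotype of the MHC, while the mm10 build is that of C57BL/6, which carries the b haplotype. The labels do not say which haplotype the PyMT mice carry. The part of haplotype and alignment in the levels of H2-K1, H2-D1, H2-T23 and the H2-Q genes, and in their differences between the libraries, was not tested.

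Depth is given in UMIs (unique molecular identifiers, each counting 1 captured RNA molecule). There were 5491 wild-type cells with 42542700 UMIs, at a median of 5668 per cell, and 9155 PyMT cells with 73435307 UMIs, at a median of 7063. Cells were classed by genes outside the pathway. Neutrophils had at least 10% of their UMIs from S100a8 and S100a9 and fewer than 2 of Cd79a and Cd79b. Monocytes had under 5% and at least 2 UMIs of Csf1r and Ccr2, and B cells had under 5% and at least 3 UMIs of Cd79a and Cd79b. Monocytes with at least 2 UMIs of Ace, Treml4 and Adgre4 were called nonclassical, and those with 0 classical. This gave 3980 wild-type and 5488 PyMT neutrophils, 601 and 1597 monocytes, of which 215 and 820 were classical and 264 and 452 nonclassical, and 375 and 1152 B cells. In each library 71 cells counted as both monocyte and B cell, and 72 barcodes occurred in both libraries, which is 1.31% of wild-type cells and 0.786% of PyMT cells.

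Each class showed its own markers: all 12 neutrophil, 10 monocyte, 10 nonclassical and 10 B cell genes of the lists, the genes of the class rules among them, reached 10 CPM (UMIs of the gene scaled to the total of its class sum, as counts per 1e6) in the classes they name. The nonclassical class was not clear of classical markers, and its rule also asks for Csf1r or Ccr2 UMIs. It held Ccr2 at 393 CPM in wild type and 473 CPM in PyMT, against 585 and 701 CPM in classical monocytes. Ly6c2 was at 733 and 968 CPM there, against 1383 and 1876 CPM in classical ones. Other cells' genes were present too. The wild-type neutrophil class held 394 cells with at least 2 UMIs of Csf1r and Ccr2, at a median of 13701 UMIs, and its level of the MHC class II chaperone gene Cd74 was 792 CPM against 161 CPM in PyMT. Neutrophil results are therefore also given for cells with no UMI of Csf1r, Ccr2 or the cell cycle genes Mki67 and Top2a, called stringent neutrophils below (3028 wild-type and 4121 PyMT cells), where Cd74 was 139 and 109 CPM. In the B cell class the summed monocyte list was 9570 CPM in wild type and 4778 CPM in PyMT, and the erythroid list, led by Hbb-bs, was 13.2 and 2468 CPM. S100a8 and S100a9 made up 0.902% of monocyte UMIs in wild type and 1.52% in PyMT, which is 2.90% and 4.38% of their share in neutrophils. The part of this neutrophil RNA in the monocyte results was not tested.

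In neutrophils H2-K1 stood apart from the other classical heavy chain. H2-K1 was at 410.3 CPM in wild type (from 12470 UMIs) and 153 CPM in PyMT (from 7418 UMIs), a log2 ratio of PyMT over wild type of -1.42 (-1.46 to -1.38). H2-D1 was at 2089 CPM in the first and 2283 CPM in the second (log2 ratio 0.13, interval 0.11 to 0.14). H2-T23 was at 34.1 and 33.4 CPM, with a log2 ratio of -0.03 and an interval that includes 0. The small H2-D1 difference had the other sign on each side of a split by the granule gene Camp. H2-D1 was at 2061 CPM in wild type and 1903 CPM in PyMT among cells with at least 2% of UMIs from Camp, and at 3337 and 3242 CPM among those under 2%, which were 142 of 3980 wild-type and 2490 of 5488 PyMT neutrophils. It was also lower in PyMT among cells with at least 2 UMIs of Mki67 and Top2a (1934 and 1626 CPM) or of Csf1r and Ccr2 (3043 and 2773 CPM).

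H2-K1 was also lower in the stringent neutrophils, where it was at 299.9 CPM in wild type and 131 CPM in PyMT, a log2 ratio of -1.20 (-1.26 to -1.14). H2-D1 was at 1902 CPM and 2284 CPM there (log2 ratio 0.26, interval 0.25 to 0.28). The H2-K1 difference was present at every depth: over 5 bins of stringent neutrophils from under 4000 to 15000 or more UMIs, H2-K1 ran from 285 to 309.6 CPM in wild type and from 122 to 141 CPM in PyMT, and the ranges did not overlap. Among the neutrophils with at least 2 UMIs of Mki67 and Top2a, which include dividing precursors (375 and 174 cells), H2-K1 was at 506 and 207 CPM. Scaling matters for this class, since the median log2 ratio of all genes was -0.47 in neutrophils and -0.21 in stringent ones. With a trimmed mean of M-values, which shifts every neutrophil ratio by 0.45, H2-K1 was still lower at -0.97 and H2-D1 was at 0.58.

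Counting the 2 heavy chains against each other removes the scaling. H2-K1 made up 16.4% of the H2-K1 and H2-D1 UMIs of wild-type neutrophils (exact binomial 16.2 to 16.7%) and 6.30% in PyMT (6.16 to 6.44%). In stringent neutrophils the shares were 13.6% and 5.41%. Classical monocytes had 20.2% and 14.5%, and nonclassical monocytes 21.3% and 16.0%. B cells had 28.9% (28.0 to 29.8%) and 28.3% (27.8 to 28.9%), with overlapping intervals. Among B cells without Csf1r or Ccr2 UMIs (279 and 1027 cells) the shares were 33.4% and 29.8%. There H2-K1 was at 1462 and 1456 CPM and H2-D1 at 2917 and 3430 CPM, so the lower PyMT share came with more H2-D1 and nearly the same level of H2-K1. A share is a ratio, and shows only that the 2 genes differed by unequal amounts.

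**Figure D1:**
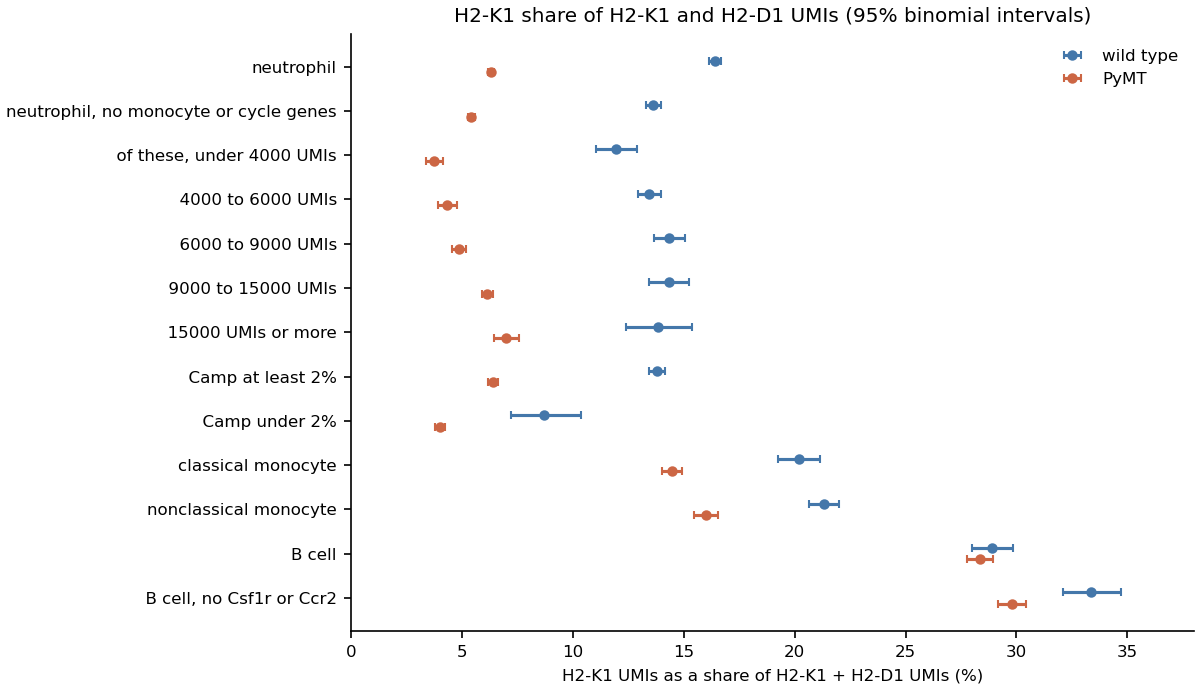
H2-K1 UMIs as a percentage of H2-K1 plus H2-D1 UMIs (x axis) by cell class and neutrophil subset (y axis), wild type in blue and PyMT in orange, with exact binomial 95% intervals for counting error. PyMT points lie at 3.72 to 6.97% over the 5 depth bins of stringent neutrophils and wild-type points at 11.9 to 14.3%, while the B cell points meet at 28.9% and 28.3%.

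The share of cells with an H2-K1 UMI was also compared at equal depth. After thinning every cell to 2500 UMIs, with no cell too shallow to keep, H2-K1 was seen in 52.9% of wild-type and 28.4% of PyMT neutrophils (77.0% and 59.5% unthinned). In stringent neutrophils the thinned shares were 49.1% and 26.4%, at median depths of 5191.5 and 7865 UMIs before thinning. In classical monocytes they were 85.6% and 62.9%, and in B cells 96.0% and 94.4%. H2-D1 was seen in 98.3% of wild-type and 99.0% of PyMT stringent neutrophils. Shares this near to all cells, as for H2-K1 in B cells, cannot show whether levels are alike. Class I is expressed by nearly all nucleated cells, so no class lacks it and no share here gives a background level.

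The members' median was close to that of all neutrophil genes, with single members on both sides of it. Against 42.6% of all 9927 neutrophil genes tested that were at least 1.5-fold lower in PyMT, and 7.11% at least 1.5-fold higher, 3 of the 10 class I genes were lower and 0 higher: H2-K1, Tap1 and Nlrc5. Their median log2 ratio was -0.39, beside -0.47 for all genes. In the stringent neutrophils only H2-K1 was lower, against 24.6% of all genes, 0 were higher, against 10.7%, and the medians were -0.16 and -0.21. B2m, whose product pairs with every classical heavy chain, was at 1680.2 and 1327 CPM in those cells (log2 ratio -0.34). The transporter genes Tap1 and Tap2 were at -0.20 and -0.22 and the tapasin gene Tapbp at 0.31. The immunoproteasome genes Psmb8 and Psmb9 were at 0.01 and -0.11. Nlrc5 had 30 and 41 UMIs in all, and its interval, -1.17 to 0.27, included 0.

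**Figure D2:**
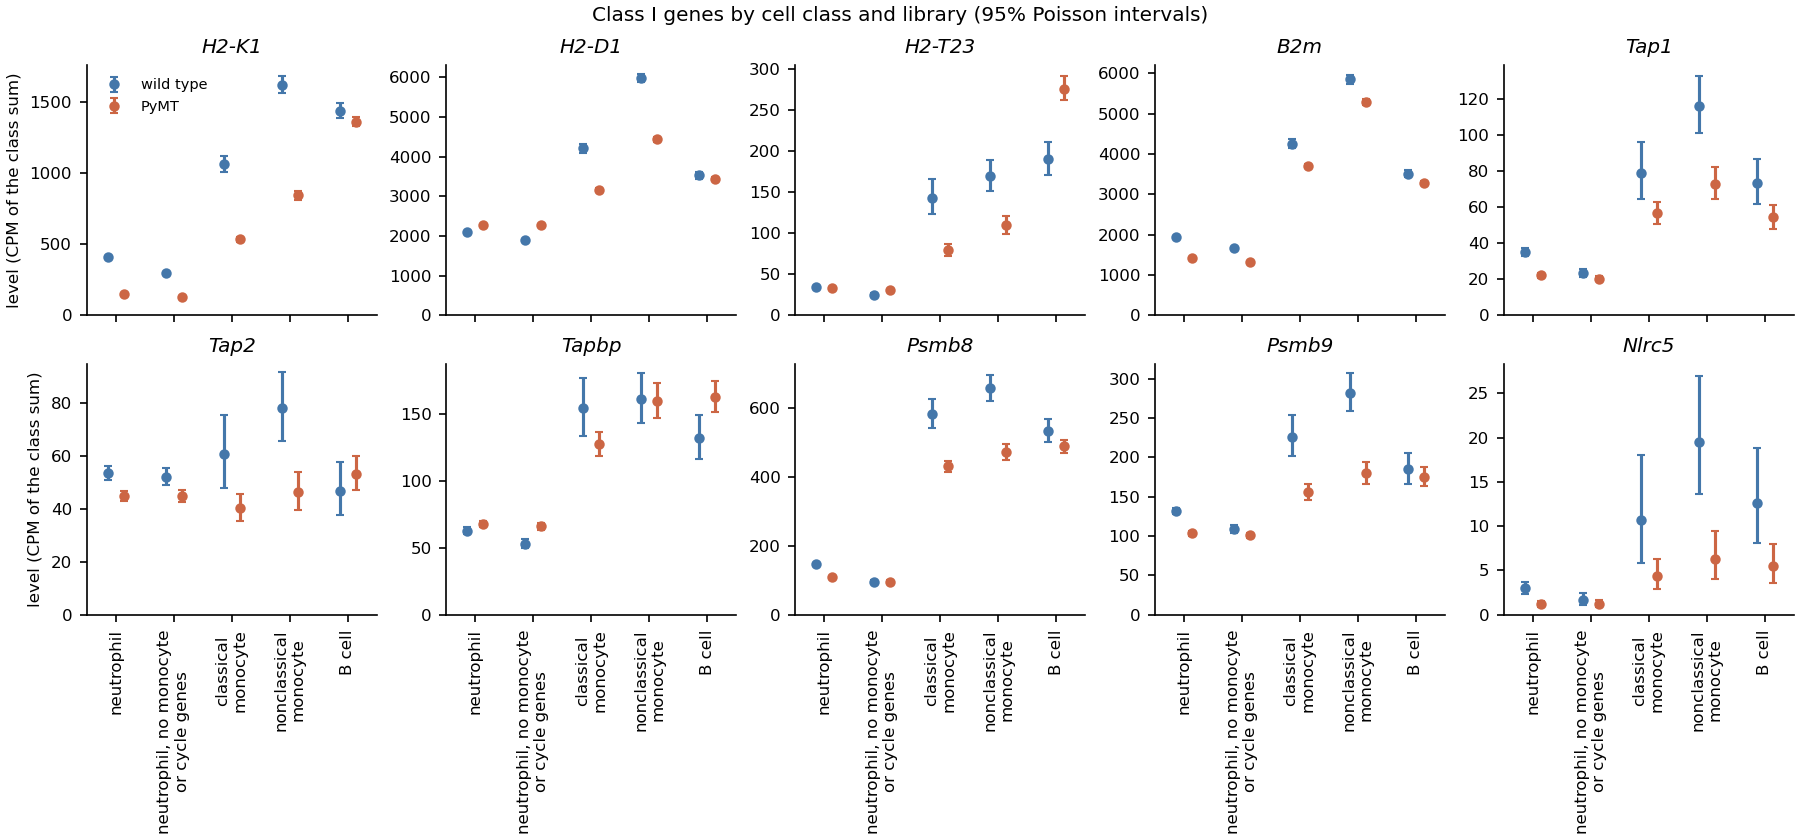
Level of each of the 10 class I genes (y axis, CPM of the class sum, from 0) in 5 groups of cells (x axis), wild type in blue and PyMT in orange, with exact Poisson 95% intervals. H2-K1 is lower in PyMT in neutrophils and both monocyte classes, from 1065 to 535 CPM in classical monocytes, and nearly level in B cells at 1436 and 1360.3 CPM.

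In monocytes the whole set lay on one side: all 10 members were lower in PyMT. In the monocyte class 6 of 10 were at least 1.5-fold lower, against 9.06% of all 9031 genes tested, and 0 were higher, against 7.84%. Their median log2 ratio was -0.68 and that of all genes 0.01. The direction of each member was the same in the main count and in each of the 13 alternatives run for this class that could give it (11 for Nlrc5). The members ranged from -0.23 for Tapbp to -1.52 for Nlrc5, which had 57 and 64 UMIs.

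The heavy chains differed by unequal amounts. H2-K1 was at 1363 CPM in wild-type monocytes (1327 to 1400.5) and 635 CPM in PyMT (621 to 649), a log2 ratio of -1.10 (-1.15 to -1.05). For H2-D1 the levels were 5171 and 3614 CPM (log2 ratio -0.52, interval -0.54 to -0.49). H2-T23 was at 153 and 89.4 CPM (log2 ratio -0.78), with the caution on shared 3′ sequence. B2m was at 5184 and 4269 CPM (log2 ratio -0.28). Each PyMT interval lay below the wild-type one.

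Of the transporter genes, Tap1 was at 106 and 61.1 CPM (log2 ratio -0.79) and Tap2 at 70.2 and 43.4 CPM (-0.69). Psmb8 was at 615 and 442 CPM (-0.48) and Psmb9 at 259.5 and 163 CPM (-0.67). The constitutive subunits that these 2 replace, Psmb5 and Psmb6, were not lower. Per UMI of Psmb6, monocytes had 1.49 UMIs of Psmb9 in wild type and 0.755 in PyMT, and per UMI of Psmb5 they had 3.58 and 2.13 of Psmb8. In neutrophils these ratios were 1.39 and 1.29 for Psmb9 and 2.01 and 1.49 for Psmb8. In B cells they were 1.26 and 1.19 for Psmb9 and 5.06 and 4.08 for Psmb8. The third inducible subunit gene, Psmb10, per UMI of its counterpart Psmb7 was at 0.469 and 0.262 in neutrophils, 1.78 and 1.36 in monocytes and 1.81 and 1.41 in B cells.

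Both monocyte subsets showed the difference. Classical monocytes, the Ly6c2-high circulating cells, had H2-K1 at 1065 and 535 CPM (log2 ratio -0.99, interval -1.08 to -0.90), and 3 of the 9 members with at least 50 UMIs were at least 1.5-fold lower, against 8.91% of all genes, with 0 higher, against 9.37%. Thinned to equal depth, 5 of the 9 were lower. The nonclassical class is named after the vessel-patrolling type, though it still held Ccr2 and Ly6c2. H2-K1 was at 1620.0 and 843 CPM there (log2 ratio -0.94, interval -1.02 to -0.87). In it 6 of 10 members were lower, against 7.75% of all genes, with 0 higher, against 8.74%. Thinned, 4 of 9 were lower, with a median of -0.56, beside 0.05 for all genes, and Tap1 was at -0.50. Tapbp was level, at 161 and 159.5 CPM, and at 0.11 on the log2 scale after thinning. Nlrc5 was at 19.5 and 6.31 CPM from 36 and 23 UMIs. Nonclassical cells were 43.9% of wild-type and 28.3% of PyMT monocytes. The subset values may not be free of that shift, since the split rests on few UMIs per cell. In classical cells the summed nonclassical list was still at 516 CPM in wild type and 294 CPM in PyMT. The part of this in the subset ratios was not tested.

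**Figure D3:**
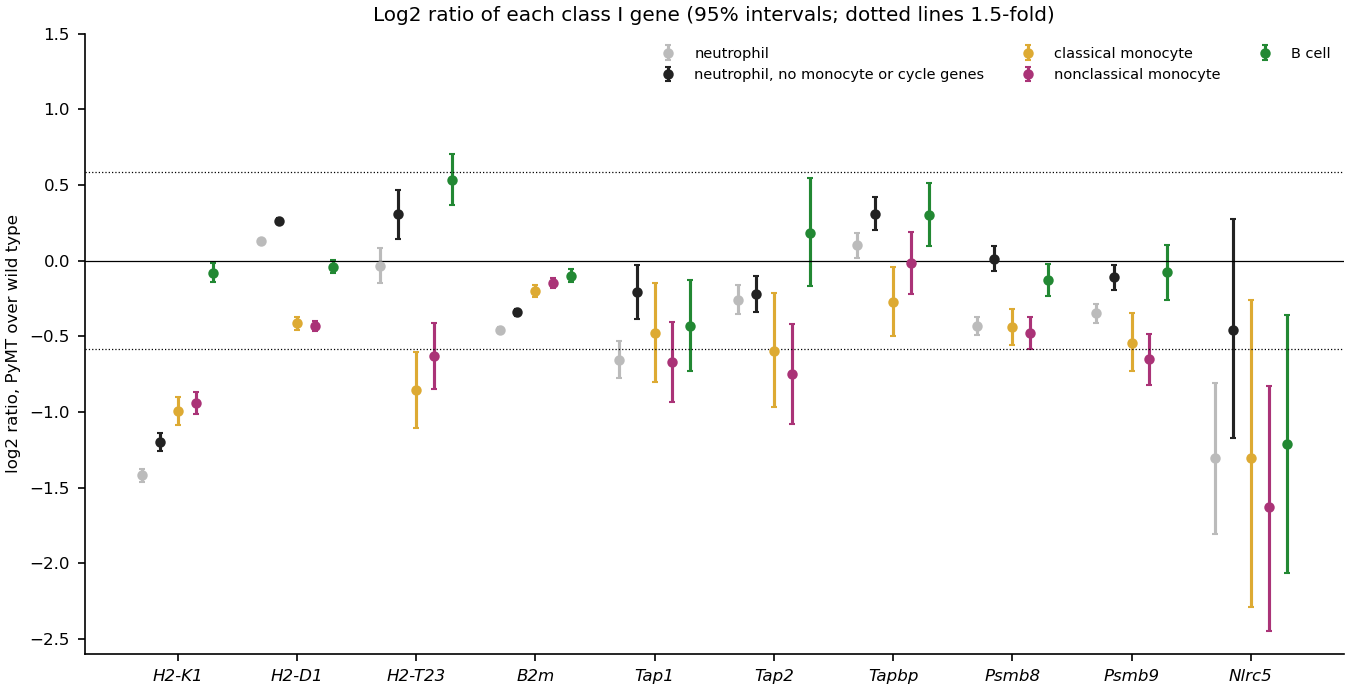
Log2 ratio of PyMT over wild type (y axis) of each of the 10 class I genes (x axis) in neutrophils, stringent neutrophils, classical and nonclassical monocytes and B cells, with exact conditional 95% intervals and dotted lines at 1.5-fold. In both monocyte classes the points lie below 0, down to -1.62 for Nlrc5, except Tapbp in nonclassical cells, which is level at -0.02, while only H2-K1 of the stringent neutrophil points passes the lower line.

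Summed over all cells, 2 of the 10 members were at least 1.5-fold lower in PyMT, against 15% of all genes, and 0 higher, against 9.19%, with shares of each class that differ between the libraries. In B cells the libraries were close. The median log2 ratio of the members was -0.08, beside 0.06 for all genes. H2-K1 was at 1436 CPM in wild type (1383 to 1491) and 1360.3 CPM in PyMT (1328 to 1393), and H2-D1 at 3531 and 3439 CPM. The lone member at least 1.5-fold lower, against 7.43% of all genes, was Nlrc5 with 24 and 27 UMIs, and 0 were higher, against 9.85%. H2-T23 was at 191 and 276 CPM (log2 ratio 0.53), just under that limit, and in stringent neutrophils it was at 0.31. In the B cells without Csf1r or Ccr2 UMIs 0 of the 9 members with enough UMIs were 1.5-fold lower, and Nlrc5 was not among the 9. The members' median there was 0.19, beside 0.14 for all genes, whose share past 1.5-fold was not computed. Tap1 was at 0.13 in these cells, against -0.43 in the whole class, H2-D1 at 0.23 and H2-K1 at -0.01. Some member ratios in the B cell class thus changed when cells with monocyte UMIs were left out, while others hardly did, with H2-T23 at 0.55. The part of those cells in the change was not tested.

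The classes were then compared within each library. Monocytes were at least 1.5-fold above neutrophils for 9 of 10 members in wild type, where 60.7% of all genes were at least 1.5-fold higher in monocytes, and for 9 of 10 in PyMT, where 70.8% were. Tap2 was the exception in each, with log2 ratios of 0.40 and -0.04. Within monocytes, the members' median log2 ratio of nonclassical over classical cells was 0.41 in wild type and 0.42 in PyMT. At least 1.5-fold higher were H2-K1 and Nlrc5 in wild type, against 7.28% of all genes, and H2-K1 in PyMT, against 5.87%. Nlrc5 rested on 14 and 36 UMIs, and its step was not seen at equal depth. After thinning, 9 of 215 classical wild-type cells had a UMI of it (4.19%, interval 1.93 to 7.80%). In nonclassical cells 9 of 264 did (3.41%, interval 1.57 to 6.37%), and the overlapping intervals show no direction. H2-K1 was 0.61 above (0.51 to 0.70) and 0.66 above (0.58 to 0.73) on the log2 scale, so this step between subsets was nearly equal in size in the libraries. In wild type the levels of H2-K1 in B cells and nonclassical monocytes, 1436 and 1620.0 CPM, were next to each other, and in PyMT the order was reversed, with nonclassical monocytes at 843 CPM and B cells at 1360.3 CPM.

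Neutrophils express the granule gene Camp while they mature and lose it later. In the PyMT stringent neutrophils with under 2% of UMIs from Camp (1884 cells), compared with those at 2% or more (2237 cells), 4 of the 9 members with enough UMIs were at least 1.5-fold higher, against 19.8% of all genes, and the median log2 ratio was 0.58, beside -0.02 for all genes. H2-D1 was at 3204 CPM against 1897 CPM, H2-T23 at 44.1 against 24.9, Tap1 at 27.8 against 17.2 and Tapbp at 87.9 against 56.8. H2-K1 was at 133 against 129.6 CPM. Other measures moved with this split: the median depth was 4537 against 10394 UMIs, the interferon-stimulated gene Rtp4 was at 128 against 24.8 CPM and Wfdc17 at 16425 against 1364 CPM. Their part in the members' step was not tested. In wild type, Camp-low stringent neutrophils were few (105 cells). There H2-K1 was at 299.8 CPM against 299.9, H2-D1 at 3155 against 1875, and 1 of 9 members was higher, against 31.7% of all genes. On each side of the Camp limit H2-D1 was close to equal in the libraries and H2-K1 was lower in PyMT. H2-K1 made up 13.8% and 6.40% of the 2 heavy chains' UMIs in the Camp-high cells, and 8.68% and 3.99% in the Camp-low cells.

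The wider pathway was described by lists chosen with earlier results of these data known. Most heavy chain genes outside the 10 were lower in PyMT neutrophils and monocytes. Of 21 listed, 15 were in the files and 6 could be compared in stringent neutrophils, where 4 were lower, against 24.6% of all genes, and 1 higher, against 10.7%. H2-Q7 was at 9.67 and 4.23 CPM (log2 ratio -1.19), H2-Q6 at 12.7 and 6.09 (-1.06) and H2-M3, which presents formylated peptides, at 3.21 and 1.83 (-0.81). H2-Q6 and H2-Q7 encode Qa-2 molecules. The fourth lower gene was H2-Q4 (-0.59), and the higher one was the lipid-presenting Cd1d1 (0.68, from 14 and 42 UMIs), both named after their values were seen. In classical monocytes 4 of 6 were lower, against 8.91% of all genes, and 0 higher, against 9.37%. H2-Q7 was at 68.3 and 25.9 CPM there (-1.40), H2-Q6 at 62.9 and 25.3 (-1.31) and H2-Q4 at 90.5 and 49.3 (-0.88). In B cells H2-Q4 was at 122 and 192 CPM (0.66), and H2-Q7 was level at 97.4 and 91.2. The H2-Q genes are near-identical copies, so reads may be split among them.

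General machinery of protein breakdown and folding was near level in monocytes. Of all genes tested in the monocyte class, 9.06% were at least 1.5-fold lower and 7.84% higher. The 3 constitutive catalytic subunits Psmb5, Psmb6 and Psmb7 had a median log2 ratio of 0.27 in the monocyte class, with 0 of 3 past 1.5-fold. The 11 other core subunits were at 0.15 and the 9 cytosolic peptidases at 0.26, and again 0 passed. The 15 genes of loading and trimming that could be compared had a median of 0.04, and 1 was lower, Tapbpl, a tapasin-related peptide editor, at 32.3 and 18.8 CPM (-0.78). Of 8 partners of the inducible proteasome 1 was lower, the proteasome activator gene Psme2 at 481 and 308 CPM (-0.64). In stringent neutrophils these 5 lists had medians from -0.20 to 0.06, beside -0.21 for all genes.

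Among regulators of class I transcription, 6 of 24 were lower in the monocyte class, against 9.06% of all genes, and 0 higher, against 7.84%. The lower ones included Ciita, the class II relative of Nlrc5, at 26.3 and 5.30 CPM (-2.31), and the interferon response factor gene Irf1 at 82.1 and 40.3 CPM (-1.03). In the stringent neutrophils 4 of 21 were higher, against 10.7% of all genes, and 2 lower, against 24.6%, and the largest ratios were positive: the interferon-γ receptor gene Ifngr1 was at 34.6 and 99.7 CPM (1.53), the interferon signalling gene Irf9 at 32.5 CPM in PyMT (1.12) and Irf1 at 17.1 and 32.6 CPM (0.93). Irf1 thus had opposite signs in these 2 classes, and that difference was not tested. Class II genes, listed for comparison, were lower in monocytes, 9 of 9, against 9.06% of all genes, with a median of -2.15. Markers of other cells also differed in classical monocytes: the dendritic cell list summed to 321 CPM (wild type) and 85.2 CPM (PyMT), with Xcr1 at 0 in the first and Clec9a and Siglech at 0 in the second, and the B cell list at 575 and 209 CPM. In the monocyte class without cells with a UMI of Flt3, Cd209a, Xcr1, Clec9a or Siglech, H2-K1 was at -1.15 and 6 of 10 members were at least 1.5-fold lower. The members' median was -0.70 there, beside 0.01 for all genes, whose share past 1.5-fold was not computed. In monocytes without Cd79a or Cd79b UMIs H2-K1 was at 1345 and 619.6 CPM.

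Most genes on the list of inhibitory receptors linked to class I, and their adaptors, were higher in PyMT neutrophils. In the stringent cells 7 of 9 genes of the receptor and adaptor list were at least 1.5-fold higher, against 10.7% of all genes, and 1 lower, against 24.6%, with a median of 0.79. Cd244 was at 1.12 and 13.9 CPM (3.62), Lilrb4a at 163 and 333 CPM (1.03) and Pira2 at 65.7 and 128 CPM (0.96). Cd244 encodes a receptor for CD48 and not for class I, Lilrb4a an inhibitory receptor, and Pira2 an activating receptor that binds class I. The class I-binding inhibitory receptor gene Pirb, named after its value was seen, was at 173 and 299.2 CPM (0.79). In classical monocytes Pira2 was at 78.3 and 204 CPM (1.38), and in nonclassical ones at 104 and 203 (0.97).

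**Figure D4:**
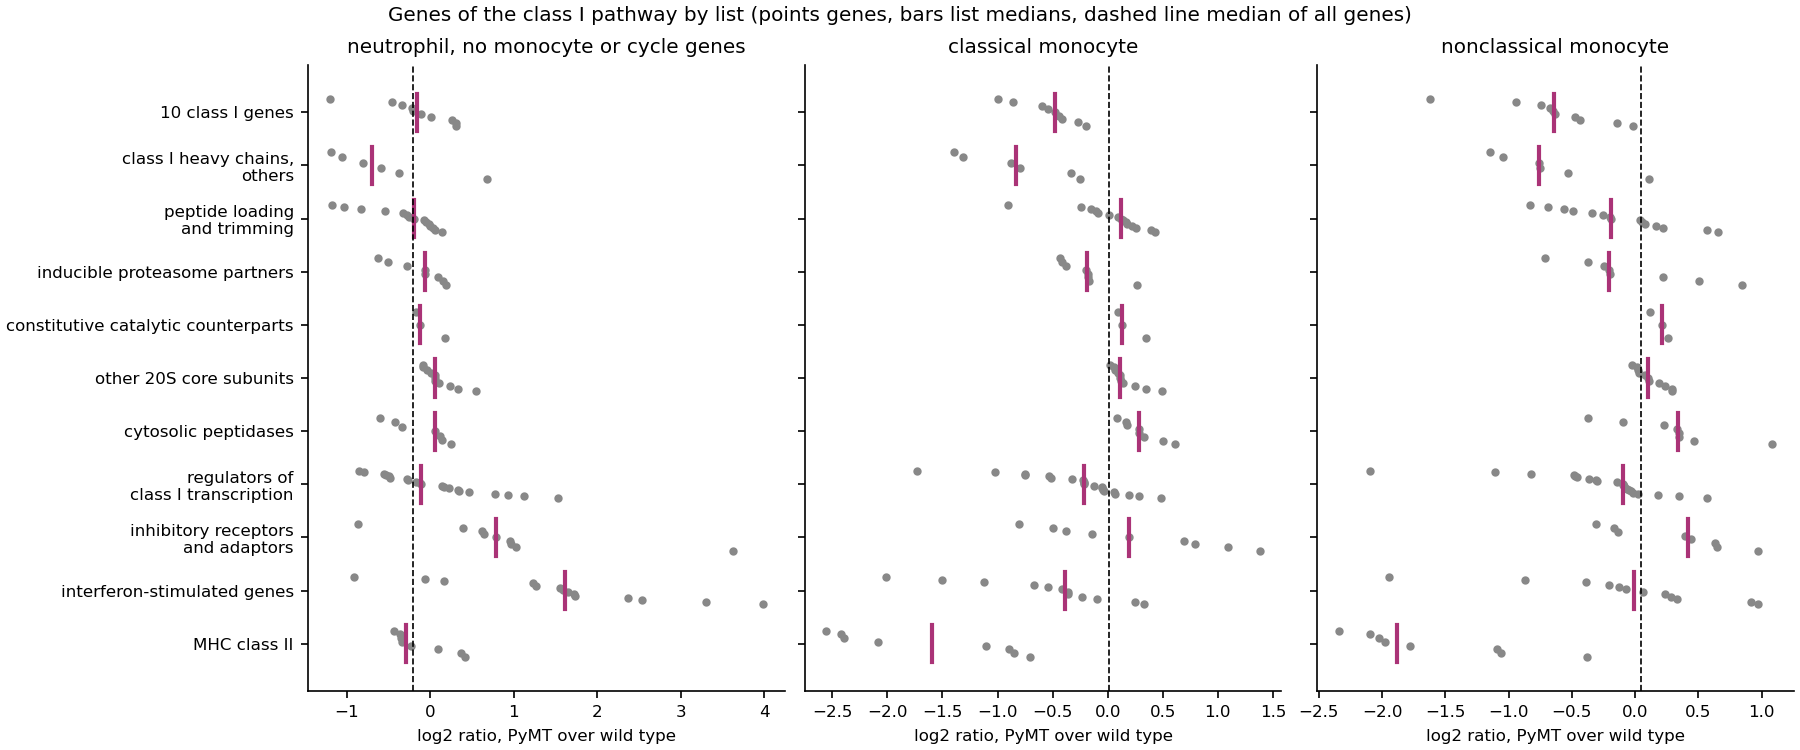
Log2 ratio of PyMT over wild type (x axis) of single genes (grey points) in 11 lists of the class I pathway and comparison genes (y axis), for stringent neutrophils, classical and nonclassical monocytes. Bars are list medians and dashed lines the median of all genes tested. Interferon-stimulated genes lie above the line in neutrophils, with a median of 1.62, and class II genes below it in both monocyte classes, with medians of -1.59 and -1.88.

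Most interferon-stimulated genes were higher in PyMT neutrophils. In the stringent ones 11 of 14 were past 1.5-fold higher, against 10.7% of all genes, and 1 lower, against 24.6%, with a median of 1.62, including the antiviral genes Rtp4 at 3.49 and 55.4 CPM (3.99), Oasl2 at 3.99 and 39.4 CPM (3.30) and Gbp2 at 2.36 and 13.7 CPM (2.54). In classical monocytes 4 of 12 were lower, against 8.91% of all genes, and 0 higher, against 9.37%, with Gbp2 at 93.6 and 23.2 CPM (-2.01), Isg15 at 107 and 37.7 CPM (-1.50) and Rtp4 at 69.1 and 31.7 CPM (-1.12). In nonclassical monocytes 2 of 12 were higher and 2 lower, against 8.74% and 7.75% of all genes, with a median of -0.01. The differences between these classes were not tested.

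Cells were then split within each library by their UMIs of 19 such genes, after thinning to 2500 UMIs. In PyMT stringent neutrophils with at least 2 such UMIs (803 cells), compared with those with 0 (2319 cells), 5 of 9 members were at least 1.5-fold higher, against 17.6% of all genes, and the median log2 ratio was 0.62, beside 0.08 for all genes. Psmb8 went from 89.5 to 165 CPM over these bins, H2-T23 from 27.6 to 51.8, Tap1 from 21.2 to 34.4, Psmb9 from 89.7 to 144.5 and Tapbp from 64.3 to 98.6. H2-D1 was at 2269 and 3172 CPM and B2m at 1331 and 1936. H2-K1 was at 127 CPM with 0, 129 CPM with 1 and 132 CPM with at least 2. These bins are not independent of the Camp split. Rtp4, among the 19 genes, was at 128 CPM in Camp-low and 24.8 CPM in Camp-high PyMT stringent neutrophils. The parts of the 2 splits were not told apart. In wild type the same step (2501 and 89 cells) took H2-K1 from 294 to 391 CPM and H2-D1 from 1874 to 2454, and 1 of 9 members was higher, against 19.2% of all genes.

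In nonclassical monocytes of wild type 5 of 8 members were higher in the cells with at least 2 such UMIs (105 against 93 cells), against 7.44% of all genes, with a median of 0.75. In PyMT 1 of 8 was (192 against 136 cells), against 4.75%, with a median of 0.28. In classical monocytes 1 of 7 was higher in wild type, against 9.23%, and 2 of 9 in PyMT, against 4.48%. In B cells 3 of 8 were higher in wild type (42 against 274 cells), against 21% of all genes, and 0 of 9 in PyMT (105 against 794 cells), against 11.3%. Whether these steps differ between the libraries was not tested. The bins rest on few UMIs per cell, and counts in the smaller ones changed with thinning to 1000 UMIs.

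**Figure D5:**
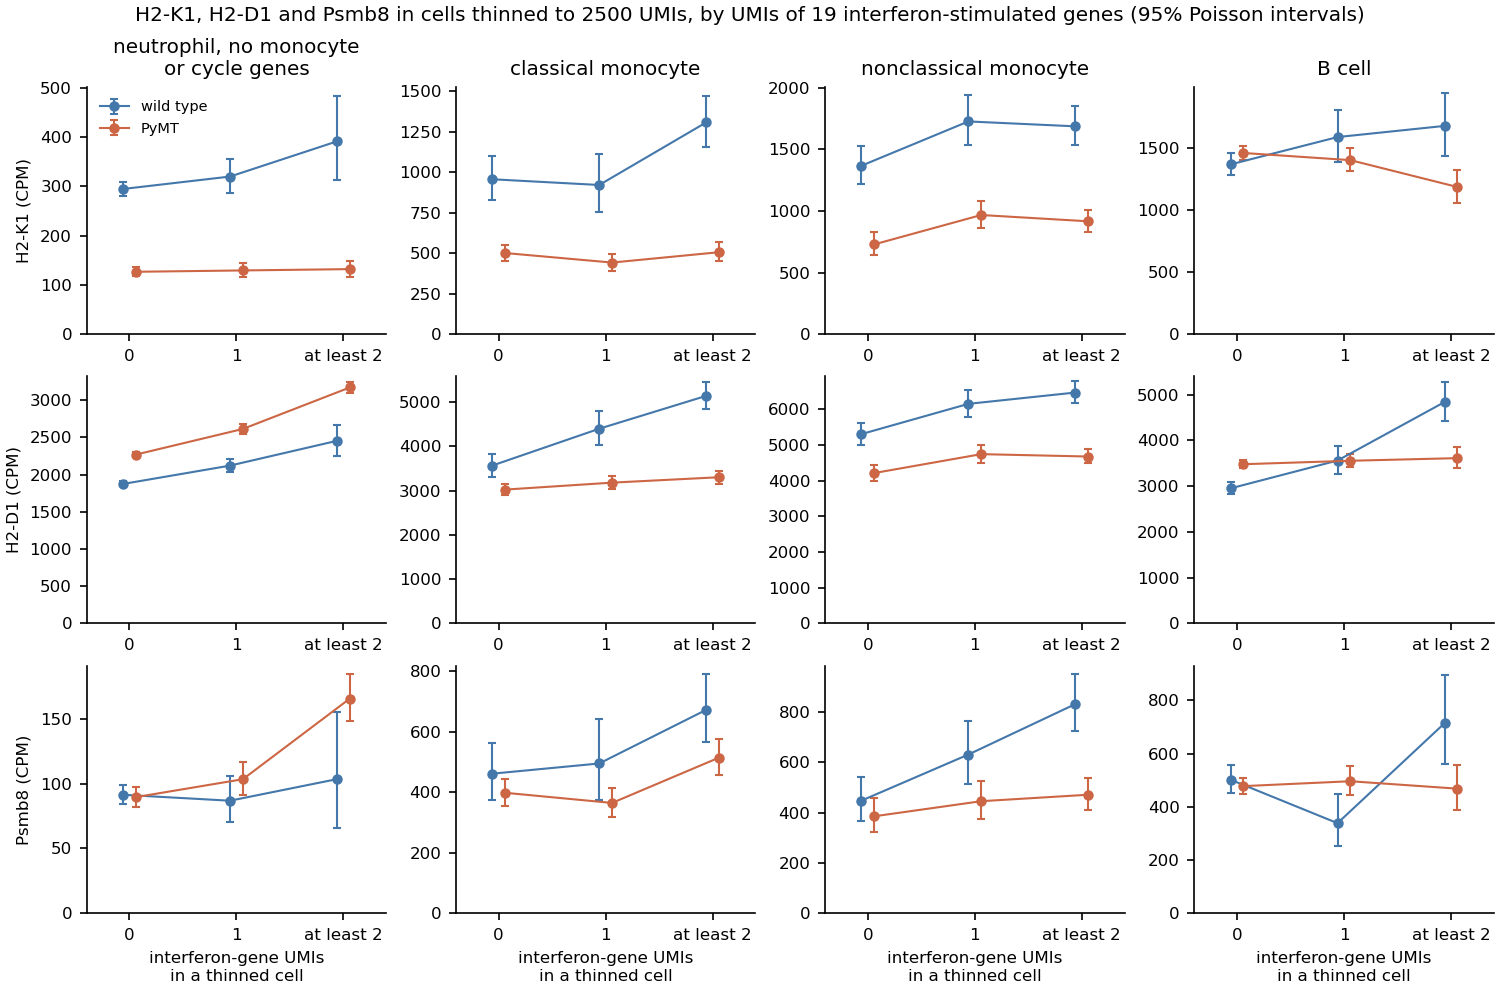
Levels of H2-K1, H2-D1 and Psmb8 (rows, CPM from 0) in cells thinned to 2500 UMIs, by the number of UMIs of 19 interferon-stimulated genes in the cell (x axis), for 4 groups of cells (columns), wild type in blue and PyMT in orange, with exact Poisson 95% intervals. In PyMT stringent neutrophils H2-K1 stays between 127 and 132 CPM while H2-D1 goes from 2269 to 3172 CPM and Psmb8 from 89.5 to 165 CPM.

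The genes most like the members were sought over the 8 sums of neutrophils, classical and nonclassical monocytes and B cells in the 2 libraries, among 2458 genes with at least 50 UMIs in each. The closest to the members' mean log2 CPM were Psme2b (Pearson r = 0.992), H2-DMb1 (0.987), Peli1 (0.986), Clec2d (0.984) and Arf6 (0.981). H2-DMb1 encodes a class II peptide editor, and Clec2d encodes a ligand of an inhibitory natural killer cell receptor. Closest to H2-K1 alone were H2-Q7 (0.997), Hsp90aa1 (0.990), Dock2 (0.988), Cd40 (0.982) and Nktr (0.981). H2-Q7 was at 22.5 CPM in wild-type and 5.88 CPM in PyMT neutrophils and at 131 and 59.0 CPM in nonclassical monocytes. The 8 sums share libraries and cell types, so these correlations describe likeness only.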

How the data were processed

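UMI counts per gene and cell were deposited as filtered matrices, made with Cell Ranger 2.1.0 on mm10 per the submitters' processing notes, from 10x 3′ libraries per the labels. Every value in them was a whole number. The 10 genes and all lists were chosen with earlier results of these data known.

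Cells with under 200 genes or over 10% mitochondrial UMIs were dropped, which left out 0 wild-type and 5 PyMT cells. UMIs were summed per library and class, with 3872443 to 30390118 UMIs in the wild-type monocyte and neutrophil sums, and divided by the class total. Levels have exact Poisson intervals, ratios exact conditional intervals and shares exact Clopper-Pearson intervals, all 95%. They cover counting error only, and without replicate libraries no p-value was computed. A gene counted as higher or lower at 1.5-fold or more, among genes with at least 50 UMIs over both sums. This procedure was tested on simulated Poisson counts. These hold no variation between cells or libraries, so that test covers counting error only.

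Named genes were the 10 members, up to 3 genes of each other list with the largest ratio in a class, 5 genes most like the members, 5 most like H2-K1, and class and marker genes. Scrublet's own threshold marked 0% of cells, so doublets were kept, and an alternative left out 241 wild-type and 670 PyMT cells with the highest scores. Alternatives covered scaling (edgeR 4.0.16 trimmed mean, median of ratios), thinning, cell filters, class limits and UMI minimums. Cells without Csf1r, Ccr2, Mki67 or Top2a UMIs, cells with at least 2% Camp used as a class, and B cells without haemoglobin UMIs were added after seeing the data. Promoter windows came from RefSeq on GRCm38.p6, and of 2 windows listed for H2-K1 the last was used. Python 3.11.15, numpy 2.4.6, scipy 1.17.1, scanpy 1.11.5, Biopython 1.88 and R 4.3.3 were used. Constant-region genes of antigen receptors were not analysed here. A gene that the rule for named genes would name is not reported here.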

Additional observations from a re-analysis of the deposited data

Results flagged for a closer look

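For 3 of the 10 genes the log2 ratio of PyMT over wild type was above 0 in one of the neutrophil, monocyte and B cell classes and below 0 in another, with counting intervals that exclude 0 under each of the scalings run. The difference between the classes was not tested. H2-D1 was at 0.13 in neutrophils, though not above 0 on either side of the Camp limit, and at -0.52 in monocytes. H2-T23 was at -0.78 in monocytes and 0.53 in B cells. Tapbp was at 0.10 in neutrophils, -0.23 in monocytes and 0.30 in B cells. Its neutrophil sign also depended on Camp. Among neutrophils with at least 2% Camp, Tapbp was at 62.6 CPM in wild type and 58.5 CPM in PyMT. Under 2% Camp it was at 77.1 and 90.3 CPM. Tap2 also had opposite signs, at -0.69 in monocytes and 0.18 in B cells, but its B cell interval, -0.17 to 0.55, included 0.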

How the results depend on the processing

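H2-K1 was at least 1.5-fold lower in PyMT under every setting run in neutrophils (log2 ratio -1.49 to -0.95), the monocyte class (-1.15 to -1.07), classical (-1.17 to -0.94) and nonclassical monocytes (-1.02 to -0.86), and under none in B cells (-0.14 to -0.01). In neutrophils, 1 member was higher with median-of-ratios scaling, and 1 was lower after thinning to 2500 UMIs and in cells without Csf1r, Ccr2, Mki67 or Top2a UMIs, against 3 in the main count. Nlrc5 was not tested in the thinned count. In neutrophils with at least 2% Camp, 4 of 10 were lower, B2m at -0.66 among them, against 41.4% of all genes. The members' median there was -0.53, beside -0.47 for all genes. The neutrophil median of the members was 0.06 with the trimmed mean and 0.08 with the median of ratios. In classical monocytes 5 members were lower after thinning, and over all settings 2 to 5. In nonclassical monocytes 4 of 9 were lower after thinning, against 6 of 10. In B cells 1 member was higher with equal weight per cell and after thinning, and 0 were lower after thinning, with the stricter cell filter, with stricter classes, without cells of 2 classes, without doublets, at 200 UMIs and without haemoglobin UMIs. In each setting with 0 lower, Nlrc5, the member lower in the main count, was under the UMI minimum and not tested. It was lower in all 7 settings that could give it, the main count among them, at -1.27 to -1.16. In wild type, 1 member was higher in nonclassical than classical monocytes with stricter classes and without cells with dendritic genes. Nlrc5, also higher in the main count, was not tested in these settings. With 1000 UMIs per cell, the counts of members higher with interferon-stimulated UMIs were 0 in wild-type classical monocytes, 1 in wild-type nonclassical monocytes, 1 in PyMT classical monocytes and 3 in PyMT B cells. That setting left under 20 cells in the highest bin of wild-type B cells and wild-type stringent neutrophils, so it gave no value there. Unthinned, the share of cells with H2-K1 differed by -17.6 points in neutrophils and -4.95 points in monocytes, against -24.4 and -21.7 points thinned. Beyond members that fell under the UMI minimum, the causes of these changes, fewer UMIs or cells among them, were not tested. Of the alternative counts of members above, only those of the stringent neutrophils and the neutrophils with at least 2% Camp had a share of all genes computed beside them. No paired analysis was possible because each group is 1 library.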
